A study of Mus musculus with 19 samples.

Results

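High endothelial cells (HEC) of Peyer's patches were set against HEC of mesenteric lymph nodes. Their group means came from 7 of the 19 expression arrays of the series, while the variance of each gene was estimated over all 19. Members were chosen by sample title. The Peyer's patch group held 3 arrays, and the mesenteric group held 4, of which arrays 1 and 2 came from cells sorted as positive for both MAdCAM1 and PNAd and arrays 3 and 4 from cells sorted as positive for MAdCAM1. The same tissue difference was also measured in capillary endothelial cells, with 3 Peyer's patch and 2 mesenteric arrays, and 4 arrays of peripheral lymph node HEC gave a further point of comparison. All cells came from adult mice of the inbred Balb/c strain, 6 to 8 weeks old, with males and females mixed in equal parts, and no mutation or treatment is listed for any group. No gate is given in the labels for the Peyer's patch cells or for the capillary cells. Nothing in the labels tells whether the arrays of a group were prepared from different mice or on different sorts. The p-values therefore reflect how much these arrays vary, and that variation may be technical.

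High endothelial venules are the vessels through which naive lymphocytes leave the blood. Their cells display sulfated, fucosylated and sialylated sugars on mucin-like proteins, which L-selectin on lymphocytes binds (the epitope known as PNAd), and in mucosal tissue they also carry MAdCAM1, the ligand of the integrin α4β7. Chemokines held on the vessel wall then trigger firm arrest. Peyer's patches lie in the wall of the small intestine, directly under the epithelium, whereas mesenteric nodes drain the intestine through lymph.

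Expression values were on a log2 scale with each probe set shifted to a common baseline across arrays, which lets arrays be compared for a given gene but not genes with each other. A positive difference means higher in Peyer's patch HEC, and "called" means an adjusted p under 0.05 by limma over 19938 genes. Between the HEC groups 239 genes were called (1.20% of those tested), 111 higher (0.557%) and 128 lower (0.642%) in Peyer's patches. A difference of at least 2-fold was found in 29 of the higher genes (0.145%) and 24 of the lower ones (0.120%). The median difference over all genes was 0.01 log2. The shares of all genes called, 0.557% higher and 0.642% lower, are the background for the counts of list members below. A few called members describe those genes and not the list. In 232 of the 239 called genes the 3 Peyer's patch arrays did not overlap the 4 mesenteric arrays, against 9.09% of all genes (3.27% with the Peyer's patch arrays above and 5.82% with them below). The count varied with single arrays: it was 98 without Peyer's patch array 1, 160 without array 2, 946 without array 3, and 123 and 130 without mesenteric array 2 or 4. Called whichever of the 7 arrays was left out were 82 genes, 46 higher and 36 lower.

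**Figure D1:**
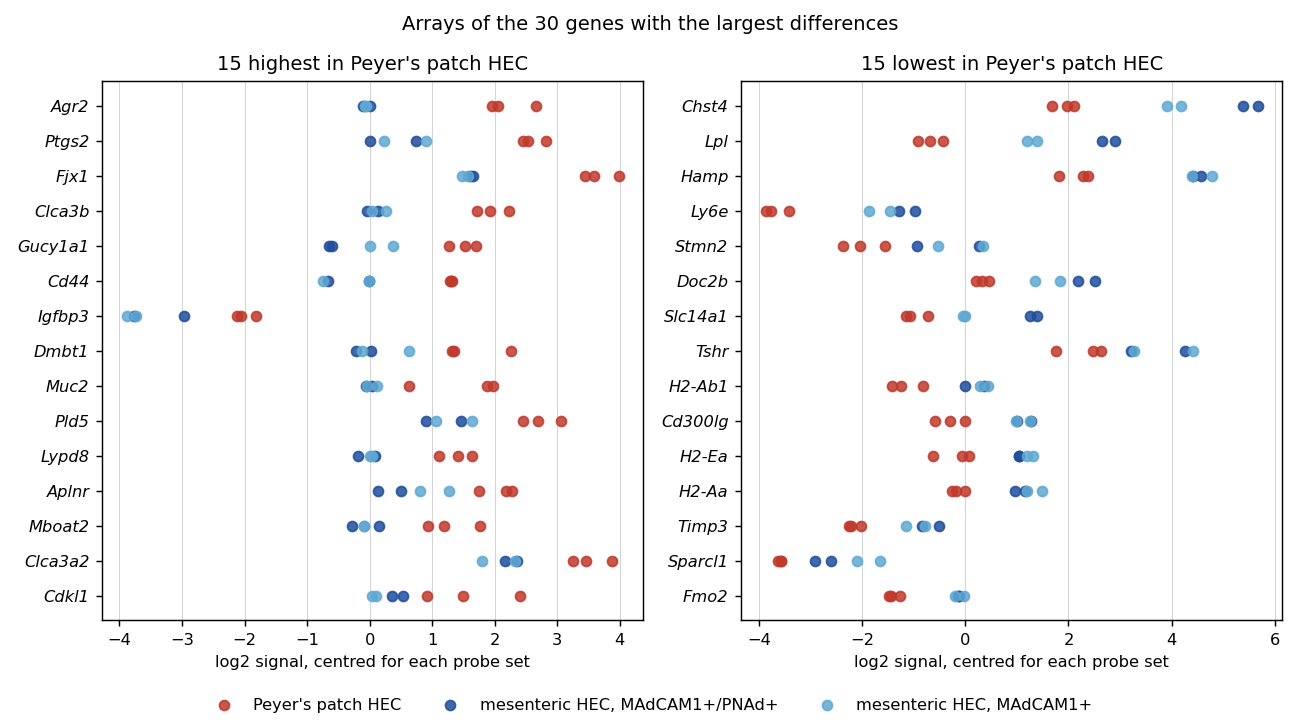
Centred log2 signal (horizontal axis) of the 15 genes with the highest and the 15 with the lowest called difference, one point for each Peyer's patch HEC array (red) and each mesenteric HEC array of the MAdCAM1+/PNAd+ gate (dark blue) or the MAdCAM1+ gate (light blue). The Peyer's patch points lie beyond all 4 mesenteric points for each of the 30 genes, which the choice of genes required. For Chst4, Lpl, Slc14a1, Doc2b, Ly6e, Gucy1a1 and Aplnr the MAdCAM1+ points lie between the other sets. For H2-Aa, H2-Ea, Sparcl1, Fjx1 and Cdkl1 the MAdCAM1+/PNAd+ points do.

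The arrays carried the markers of the labelled cell type. The mean of 16 high endothelial markers was 3.25, 3.04 and 3.33 on the Peyer's patch arrays, against 3.65, 3.42, 3.53 and 3.29 on the mesenteric HEC arrays, and lay between -0.65 and -0.23 on Peyer's patch capillary arrays. The list includes Madcam1, a gating antigen of the mesenteric sorts, and was chosen with earlier results of these data known. It is therefore not an independent check of cell identity. No member was called between the HEC groups among 15 B cell, 14 T cell, 14 macrophage, 10 dendritic cell or 14 pericyte and smooth muscle markers. Lower in Peyer's patch HEC were 2 of the 16 high endothelial markers, 1 of 16 fibroblast and reticular cell markers and 1 of 18 pan-endothelial markers, and 15 of those 18 differences were negative. The pan-endothelial mean was -0.08, -0.22 and 0.01 on the Peyer's patch arrays, against 0.05, 0.11, 0.09 and 0.13 on the mesenteric HEC arrays, with no overlap, and its part in the results was not tested. Markers of intestinal epithelium did differ. Of 28 measured, 7 were higher in Peyer's patch HEC and none lower, with a median difference of 0.72. Their mean was 0.80, 0.88 and 0.38 on the Peyer's patch arrays, against -0.05, 0.04, 0.01 and -0.01 on the mesenteric arrays. With that mean as a covariate, an alternative added after seeing the data, 46 of the 111 higher and 27 of the 128 lower genes stayed called, while the SE of the difference was 1.35 times as large. Peyer's patch arrays 2 and 3 differed from each other more than any other replicate pair of the series (SD over genes of 0.450, against 0.196 to 0.312). In sorted populations measured in bulk, fewer cells of a type and less RNA per cell cannot be told apart.

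**Figure D2:**
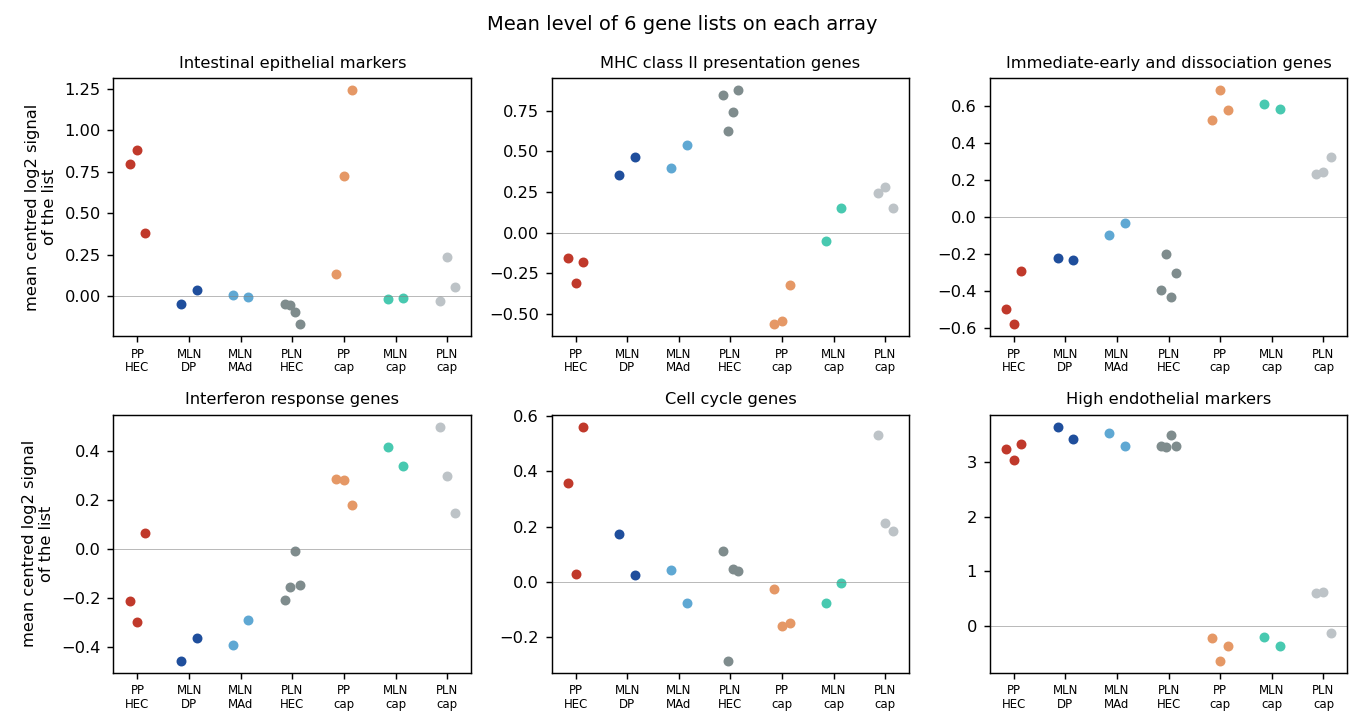
Mean centred log2 signal of 6 gene lists (vertical axis) on each array, with Peyer's patch HEC leftmost, then mesenteric HEC of the MAdCAM1+/PNAd+ (DP) and MAdCAM1+ (MAd) gates, peripheral HEC and the 3 capillary groups. Intestinal epithelial markers reached 0.38 to 0.88 in Peyer's patch HEC and 0.14 to 1.24 in Peyer's patch capillary cells, while the class II list lay at -0.31 to -0.16 in Peyer's patch HEC, against 0.36 to 0.54 in mesenteric HEC.

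Among genes that build L-selectin ligands, the sulfotransferase gene Chst4 stood lowest. Chst4, which adds the sulfate that PNAd antibodies and L-selectin recognise, had 1.98, 2.11 and 1.69 on the Peyer's patch arrays, against 5.38 and 5.67 on the MAdCAM1+/PNAd+ and 3.90 and 4.18 on the MAdCAM1+ mesenteric arrays. All 3 Peyer's patch arrays lay below all 4 mesenteric arrays, and the arrays gated on PNAd were the highest of the 7. The difference was -2.86 ± 0.34 log2 (± SE, 7.25-fold lower, adjusted p = 0.000187). PNAd was a gating antigen of the first pair of mesenteric arrays, so the sort bears on this gene there. Against the MAdCAM1+ arrays alone, which were not labelled with that gate, the difference was -2.11 (adjusted p = 0.0258), and against the MAdCAM1+/PNAd+ arrays alone it was -3.60 (adjusted p = 0.000197). Peripheral HEC arrays ranged from 5.91 to 6.13.

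For L-selectin ligand synthesis 18 genes were measured, of which 2 were lower and none higher, with a median difference of -0.29. The other called member was St3gal4, a sialyltransferase that caps these sugars (-0.59 ± 0.12, adjusted p = 0.0195). That call was lost without mesenteric arrays 2, 3 or 4 (adjusted p = 0.0941, 0.0513 and 0.0743) and without Peyer's patch arrays 1 or 2 (0.0943 and 0.107). Fut7, the fucosyltransferase of the pathway, had 2.76, 2.99 and 2.60 on the Peyer's patch arrays, against 3.45 and 3.67 on the MAdCAM1+/PNAd+ and 3.31 and 3.47 on the MAdCAM1+ arrays. The groups did not overlap, but the difference of -0.69 ± 0.17 missed the threshold (adjusted p = 0.0541). The sulfotransferase Chst2 (-0.20 ± 0.13, adjusted p = 0.574) and the core-branching enzyme Gcnt1 (0.33 ± 0.21, adjusted p = 0.564) were not called. Nor was B3gnt3, which extends core sugars (0.26 ± 0.12, adjusted p = 0.384).

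Proteins that carry such sugars showed a second low gene. Cd300lg, also known as nepmucin and a mucin-like adhesion molecule of high endothelial and capillary cells, had -0.30, 0.00 and -0.58 on the Peyer's patch arrays, against 1.28 and 1.00 on the MAdCAM1+/PNAd+ and 1.25 and 0.99 on the MAdCAM1+ arrays. The groups did not overlap and the gates were alike, with a difference of -1.42 ± 0.16 (2.68-fold lower, adjusted p = 0.000123). Of the 8 sialomucin carriers measured, 2 were lower and none higher. The second was Parm1, a mucin-like membrane protein (-0.56 ± 0.13, adjusted p = 0.0435), which was no longer called without any 1 of the mesenteric arrays or without Peyer's patch arrays 1 or 2 (adjusted p = 0.0885 to 0.161).

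The addressins themselves were not called. Madcam1, whose protein was a gating antigen of the mesenteric sorts, differed by 0.23 (95% interval -0.22 to 0.68, adjusted p = 0.711). Glycam1, a secreted mucin of high endothelium that carries L-selectin ligands, differed by 0.02 (95% interval -0.97 to 1.01, adjusted p = 0.99). The sialyltransferase St6gal1, which makes the glycan ligand of CD22, had 0.84, 0.56 and 1.27 on the Peyer's patch arrays, against 0.06 and 0.05 on the MAdCAM1+/PNAd+ and 0.71 and 0.53 on the MAdCAM1+ arrays. Here the Peyer's patch and MAdCAM1+ arrays overlapped, and the call (0.55 ± 0.13, adjusted p = 0.0453) was lost without any 1 array other than Peyer's patch array 2 (adjusted p = 0.0612 to 0.18).

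Leukocyte adhesion molecules included 1 higher and 1 lower gene of 17 measured. Cd44, the hyaluronan receptor, had 1.31, 1.29 and 1.30 on the Peyer's patch arrays, against -0.01 and -0.66 on the MAdCAM1+/PNAd+ and -0.01 and -0.75 on the MAdCAM1+ arrays. The Peyer's patch arrays were nearly equal and above all mesenteric arrays (1.66 ± 0.23, 3.16-fold higher, adjusted p = 0.000751). The lower gene was the junctional adhesion molecule Jam3 (-0.57 ± 0.12, adjusted p = 0.0327), a call lost without any 1 array other than Peyer's patch array 3 (adjusted p = 0.0766 to 0.181). Icam1, Vcam1 and Sele, which hold or slow rolling leukocytes, differed by -0.04, 0.22 and -0.14 and were not called (adjusted p = 0.944, 0.724 and 0.871).

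**Figure D3:**
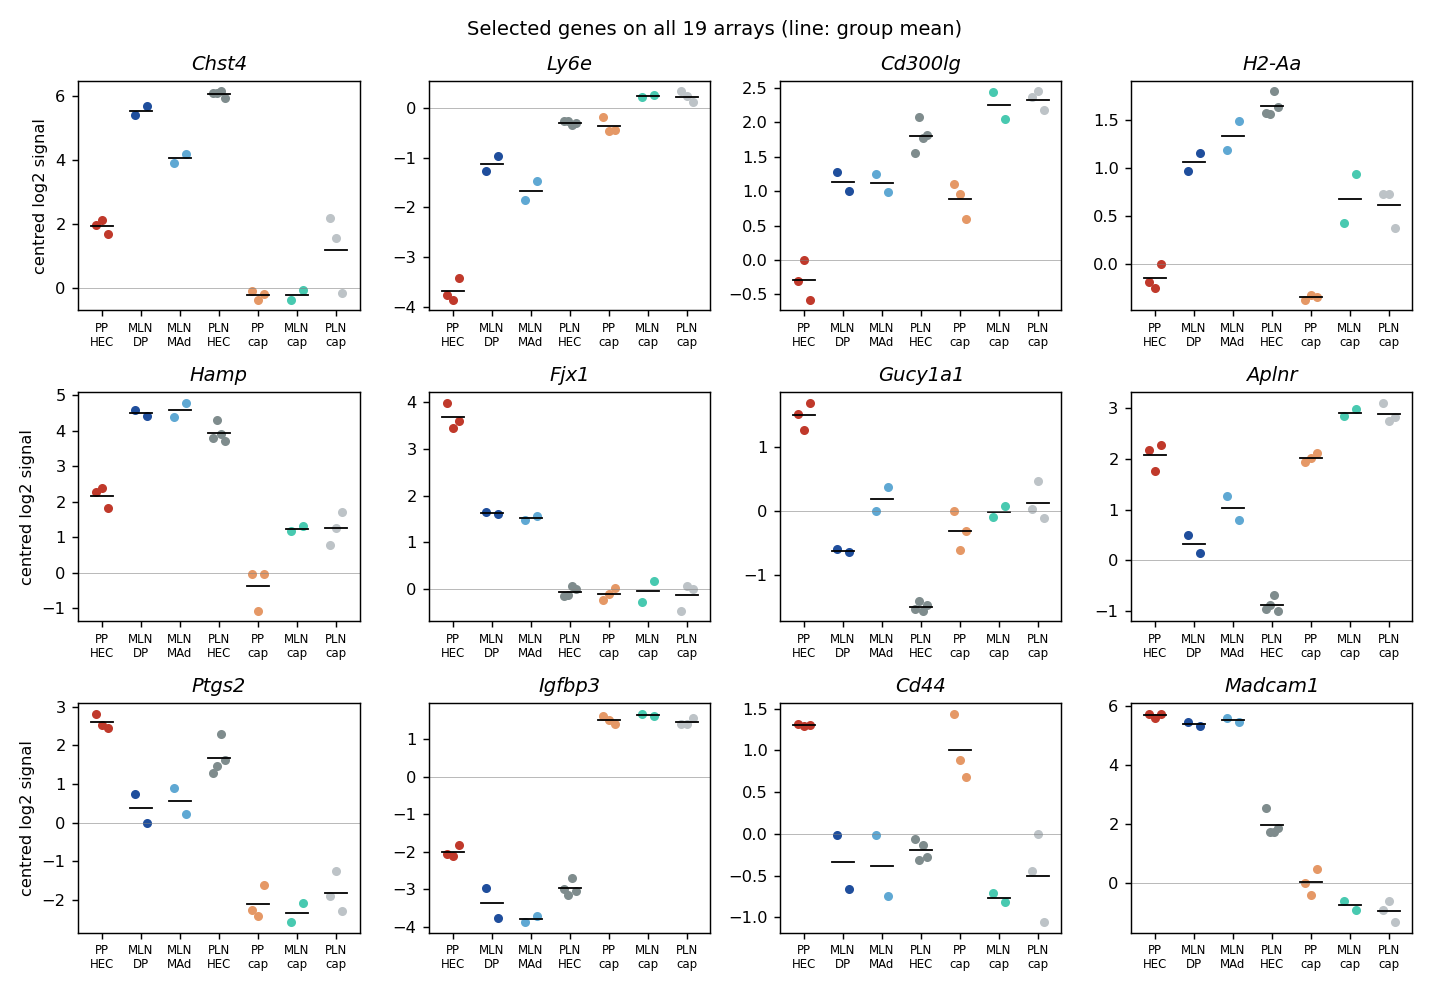
Centred log2 signal (vertical axis) of 12 genes on all 19 arrays, one point an array and a line at the group mean, with Peyer's patch groups left of their mesenteric counterparts. Chst4 was lowest among HEC in Peyer's patches and highest in peripheral nodes, Fjx1, Gucy1a1 and Aplnr ran the other way, and Madcam1 was similar in Peyer's patch and mesenteric HEC.

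Genes of antigen presentation by MHC class II were lower in Peyer's patch HEC. Of 9 measured, 4 were lower and none higher, with a median difference of -0.56 log2, and all 9 differences were negative. H2-Aa, which encodes an alpha chain of class II, had -0.18, -0.25 and 0.00 on the Peyer's patch arrays, against 0.97 and 1.16 on the MAdCAM1+/PNAd+ and 1.19 and 1.49 on the MAdCAM1+ arrays. These groups were clearly apart (-1.35 ± 0.12, 2.54-fold lower, adjusted p = 2.76e-05). H2-Ab1, the matching beta chain, had -1.24, -1.42 and -0.81 on the Peyer's patch arrays, against 0.37 and 0.00 on the MAdCAM1+/PNAd+ and 0.30 and 0.45 on the MAdCAM1+ arrays (-1.43 ± 0.16, adjusted p = 0.0001). The chains of the second class II molecule were lower as well, with H2-Eb1 at -0.78 ± 0.11 (adjusted p = 0.00125) and H2-Ea, named for its rank among all genes, at -1.35 ± 0.19 (adjusted p = 0.000896).

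The invariant chain gene Cd74, whose product guides class II molecules through the cell, had 0.15, -0.59 and 0.42 on the Peyer's patch arrays, against 1.19 and 1.18 on the MAdCAM1+/PNAd+ and 1.19 and 1.09 on the MAdCAM1+ arrays. Peyer's patch array 2 was the lowest of the 7, and the groups did not overlap (-1.17 ± 0.21, adjusted p = 0.00799). Without any 1 of the 7 arrays these 5 genes stayed called. Cd74 was not called against the MAdCAM1+ arrays alone (-1.14, adjusted p = 0.0579), in the fit of the 7 HEC arrays alone (adjusted p = 0.0698) or with the intestinal covariate (-1.19, adjusted p = 0.097). Those not called were H2-DMa (-0.56), H2-Oa (-0.13) and H2-Ob (-0.05), which help load peptide, the protease Ctss (-0.44), and Ciita, the coactivator of class II transcription (-0.01, adjusted p = 0.974). Class II genes are also abundant in B cells and dendritic cells. The mean of 15 B cell markers was 0.07, 0.16 and 0.03 on the Peyer's patch arrays, against 0.25, 0.30, 0.25 and 0.15 on the mesenteric arrays, none of the 15 was called, and the part of such cells in the class II values was not tested.

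Promoters of class II genes carry a conserved module with an X box and a Y box, and the windows of H2-Aa and H2-Eb1 are shown because both genes were lower together. H2-Ab1, H2-Ea and Cd74 were lower too. The windows used held none for H2-Ab1, and H2-Ea and Cd74 were not inspected. The sequences are from RefSeq, build GRCm38.p6, of the C57BL/6J strain and not Balb/c, and run 250 bases before to 50 after the gene start in the direction of the gene. Capitals mark GCAAC, the core of the X box, and GATTGG, the core of the Y box, searched on both strands.
H2-Aa (chr17:34287774-34288073, - strand): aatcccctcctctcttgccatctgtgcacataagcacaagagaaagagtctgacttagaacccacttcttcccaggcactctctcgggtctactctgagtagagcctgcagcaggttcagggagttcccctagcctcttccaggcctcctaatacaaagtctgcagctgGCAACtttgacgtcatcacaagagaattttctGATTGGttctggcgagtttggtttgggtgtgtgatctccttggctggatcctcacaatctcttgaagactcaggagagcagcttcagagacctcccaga
H2-Eb1 (chr17:34305617-34305916, + strand): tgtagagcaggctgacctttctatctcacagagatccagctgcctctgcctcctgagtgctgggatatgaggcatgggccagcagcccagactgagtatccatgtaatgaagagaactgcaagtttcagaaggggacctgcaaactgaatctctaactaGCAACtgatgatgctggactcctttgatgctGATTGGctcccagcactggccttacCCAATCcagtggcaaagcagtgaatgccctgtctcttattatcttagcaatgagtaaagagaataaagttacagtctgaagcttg
In H2-Aa the X core began at -81 and the Y core at -49 from the gene start, and in H2-Eb1 at -91 and -60, with a further Y core on the opposite strand at -35. No match overlapped another. Among all 32851 promoter windows, 35.2% held GCAAC and 16.1% held GATTGG. The X core followed on the same strand by the Y core, with first bases 25 to 40 apart, a spacing set after these windows were seen, was in 92 windows (0.28%). A match is a description of letters and not evidence of binding in these cells.

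Chemokines divided into 1 higher and 1 lower gene of 19 measured. Cxcl10, an interferon-inducible chemokine for activated T cells, had 1.60, 1.73 and 2.02 on the Peyer's patch arrays, against 0.76 and 0.46 on the MAdCAM1+/PNAd+ and 0.67 and 0.60 on the MAdCAM1+ arrays. All Peyer's patch arrays were above all mesenteric ones (1.16 ± 0.14, 2.23-fold higher, adjusted p = 0.000266). Cxcl13, the chemokine that draws B cells and is made by follicular stroma and by high endothelium, had -0.51, -0.23 and -0.69 on the Peyer's patch arrays, against 0.77 and 0.40 on the MAdCAM1+/PNAd+ and 0.76 and 0.80 on the MAdCAM1+ arrays. It was lower with no overlap (-1.16 ± 0.25, adjusted p = 0.0302), but the call was lost without any 1 array other than Peyer's patch array 3 (adjusted p = 0.0536 to 0.133). Ccl20 was not called (0.32 ± 0.39, adjusted p = 0.793), and Peyer's patch array 3 stood apart for it at 2.74, against 1.06 and 1.11 on arrays 1 and 2.

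The lymphotoxin pathway, on which the formation and upkeep of high endothelium depends, had 2 lower and no higher gene of 24 measured. Map3k14, which encodes the kinase NIK of the noncanonical NF-kB route, had -0.40, -0.21 and -0.22 on the Peyer's patch arrays, against 0.17 and 0.22 on the MAdCAM1+/PNAd+ and 0.14 and 0.26 on the MAdCAM1+ arrays. The difference was small but free of overlap (-0.47 ± 0.08, adjusted p = 0.00332), and was not called in the fit of the 7 HEC arrays alone. Ltbr, the lymphotoxin beta receptor, was lower by a similar amount (-0.43 ± 0.08, adjusted p = 0.012), a call lost without mesenteric arrays 2 or 4 (adjusted p = 0.0536 and 0.0654) and without Peyer's patch arrays 1 or 2 (0.061 and 0.0537).

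Interferon response genes were higher for 4 of 22 measured and lower for none, with a median difference of 0.11. Of the 22 differences 13 were positive and 9 negative. The mean of the list was -0.21, -0.30 and 0.07 on the Peyer's patch arrays, against -0.46, -0.36, -0.39 and -0.29 on the mesenteric arrays, with overlap. In capillary cells 4 of the list were higher and 4 lower in Peyer's patches. Ifit1, an antiviral protein induced by interferon, had -0.02, -0.25 and 0.14 on the Peyer's patch arrays, against -1.59 and -1.15 on the MAdCAM1+/PNAd+ and -1.39 and -1.19 on the MAdCAM1+ arrays. Every Peyer's patch array was above every mesenteric one (1.28 ± 0.17, 2.43-fold higher, adjusted p = 0.000526). Besides Cxcl10, the guanosine triphosphatases Iigp1 (0.99 ± 0.15, adjusted p = 0.00171) and Gbp5 (0.60 ± 0.12, adjusted p = 0.0149) were higher. Iigp1 was not called against the MAdCAM1+ arrays alone (0.82, adjusted p = 0.0608). The call of Gbp5 was lost without mesenteric array 1 (adjusted p = 0.054) or 3 (0.064).

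Interferon acts on many promoters through a repeated GAAA element, and the windows of 3 of these 4 genes are shown with every stretch of GAAA, any 2 bases and GAAA, searched on both strands, in capitals, from the same source and with the same bounds. The remaining gene, Iigp1, was not inspected for the element.
Ifit1 (chr19:34640639-34640938, + strand): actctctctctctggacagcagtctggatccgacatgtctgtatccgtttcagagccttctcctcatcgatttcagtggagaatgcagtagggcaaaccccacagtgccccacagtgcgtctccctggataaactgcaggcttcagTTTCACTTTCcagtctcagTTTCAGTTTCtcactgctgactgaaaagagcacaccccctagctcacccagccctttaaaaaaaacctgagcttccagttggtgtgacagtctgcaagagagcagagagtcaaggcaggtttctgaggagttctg
Cxcl10 (chr5:92348840-92349139, - strand): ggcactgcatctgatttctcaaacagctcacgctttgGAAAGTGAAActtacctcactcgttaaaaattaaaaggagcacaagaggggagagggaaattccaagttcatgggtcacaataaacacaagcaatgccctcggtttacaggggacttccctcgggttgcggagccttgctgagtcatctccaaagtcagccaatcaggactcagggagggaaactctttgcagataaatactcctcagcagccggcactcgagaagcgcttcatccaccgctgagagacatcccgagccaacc
Gbp5 (chr3:142496684-142496983, + strand): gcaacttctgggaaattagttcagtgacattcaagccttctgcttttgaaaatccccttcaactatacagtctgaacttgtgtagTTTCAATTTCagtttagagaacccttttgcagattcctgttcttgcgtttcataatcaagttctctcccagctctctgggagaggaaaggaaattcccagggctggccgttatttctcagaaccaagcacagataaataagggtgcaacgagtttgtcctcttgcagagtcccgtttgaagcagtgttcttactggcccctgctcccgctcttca
Ifit1 held 2 matches, on the opposite strand, beginning at -104 and -85. Cxcl10 held 1 on its own strand at -213, and Gbp5 held 1 on the opposite strand at -165. Of the 32851 windows, 3.44% held at least 1 match.

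Genes of vascular tone and vessel growth were among those that stood highest in Peyer's patch HEC. Gucy1a1, a subunit of the soluble guanylate cyclase that senses nitric oxide, had 1.52, 1.27 and 1.70 on the Peyer's patch arrays, against -0.60 and -0.65 on the MAdCAM1+/PNAd+ and 0.00 and 0.37 on the MAdCAM1+ arrays. The groups were apart, with the MAdCAM1+ arrays between the other sets (1.72 ± 0.15, 3.29-fold higher, adjusted p = 2.31e-05). Of 17 genes for nitric oxide, endothelin and natriuretic peptides, Gucy1a1 alone was called, and its partner subunit Gucy1b1 was at 0.72 (adjusted p = 0.055). Ptgs2, the inducible cyclooxygenase of prostaglandin synthesis, had 2.82, 2.53 and 2.45 on the Peyer's patch arrays, against 0.74 and 0.00 on the MAdCAM1+/PNAd+ and 0.90 and 0.23 on the MAdCAM1+ arrays. It was higher by 2.13 ± 0.28 (4.38-fold, adjusted p = 0.00052), the single called gene of 17 in prostaglandin metabolism, and with intestinal markers as a covariate it was at 1.74 (adjusted p = 0.0579).

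Aplnr, the apelin receptor of venous and growing vessels, had 2.17, 1.75 and 2.27 on the Peyer's patch arrays, against 0.50 and 0.14 on the MAdCAM1+/PNAd+ and 1.26 and 0.80 on the MAdCAM1+ arrays. It was higher with no overlap (1.39 ± 0.14, 2.62-fold, adjusted p = 5.77e-05). Igfbp3, which binds insulin-like growth factors, had -2.05, -2.12 and -1.81 on the Peyer's patch arrays, against -2.96 and -3.77 on the MAdCAM1+/PNAd+ and -3.88 and -3.73 on the MAdCAM1+ arrays. Mesenteric array 1 was the nearest to the Peyer's patch arrays and still below them (1.59 ± 0.15, 3.01-fold higher, adjusted p = 2.76e-05). These were the 2 called genes of 21 for angiogenesis and VEGF signalling, both higher.

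Of 24 tissue-restricted genes of G protein-coupled receptors and their regulators 2 were higher and 1 lower. Adgrg6, an adhesion G protein-coupled receptor, had 1.71, 1.38 and 2.40 on the Peyer's patch arrays, against -0.81 and -0.50 on the MAdCAM1+/PNAd+ and 0.48 and 1.54 on the MAdCAM1+ arrays. It was higher by the mean of both gates (1.65 ± 0.23, adjusted p = 0.000896), but 1 MAdCAM1+ array lay within the Peyer's patch range. Against the MAdCAM1+/PNAd+ arrays alone the difference was 2.48 (adjusted p = 0.000189), and against the MAdCAM1+ arrays alone it was 0.82 (adjusted p = 0.387). Rgs16, a regulator of G protein signalling, was higher with no overlap (1.21 ± 0.15, adjusted p = 0.000282). Tshr, the thyrotropin receptor, was lower (-1.50 ± 0.29, adjusted p = 0.0136), a call lost without mesenteric arrays 1 or 3 (adjusted p = 0.0547 and 0.0514) or Peyer's patch array 2 (0.0903).

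Of 34 guidance genes 3 were higher and 1 lower. Fjx1, the mouse homologue of the secreted fly growth and polarity factor four-jointed, had 3.98, 3.44 and 3.59 on the Peyer's patch arrays, against 1.65 and 1.61 on the MAdCAM1+/PNAd+ and 1.48 and 1.57 on the MAdCAM1+ arrays. The mesenteric arrays were tightly grouped and far below (2.09 ± 0.15, 4.26-fold higher, adjusted p = 8.84e-07). Slit2, the secreted ligand of Robo receptors, was higher by 1.11 ± 0.14 (adjusted p = 0.000379) and the transmembrane semaphorin Sema6a by 0.67 ± 0.12 (adjusted p = 0.00905). Sema6a was not called against the MAdCAM1+ arrays alone (0.46, adjusted p = 0.299). Nrp1, a coreceptor of semaphorins and VEGF, was lower (-0.49 ± 0.10, adjusted p = 0.0178), and its call was lost without any 1 array other than mesenteric array 3 and Peyer's patch array 3 (adjusted p = 0.0531 to 0.096).

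Among 35 positional homeobox genes, Hoxa9 was lower and Meis2 higher. Hoxa9, a patterning factor of the posterior body, had 0.26, 0.07 and -0.06 on the Peyer's patch arrays, against 0.92 and 1.08 on the MAdCAM1+/PNAd+ and 1.00 and 1.16 on the MAdCAM1+ arrays. The groups did not overlap (-0.95 ± 0.10, 1.94-fold lower, adjusted p = 7.74e-05). Meis2, a cofactor of Hox proteins, was higher by 0.77 ± 0.17 (adjusted p = 0.0285), a call lost without any 1 array other than mesenteric array 3 and Peyer's patch array 2 (adjusted p = 0.0528 to 0.129). Nkx2-3, the homeobox factor needed for mucosal addressin expression in mice, was not called (0.49 ± 0.17, adjusted p = 0.223).

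Other genes with large differences served transport, matrix and secretion. Hamp, which encodes the iron-regulating hormone hepcidin, had 2.27, 2.38 and 1.83 on the Peyer's patch arrays, against 4.58 and 4.41 on the MAdCAM1+/PNAd+ and 4.39 and 4.79 on the MAdCAM1+ arrays (-2.38 ± 0.25, 5.21-fold lower, adjusted p = 6.03e-05). Ly6e, a lipid-anchored surface protein, had -3.76, -3.86 and -3.42 on the Peyer's patch arrays, against -1.27 and -0.97 on the MAdCAM1+/PNAd+ and -1.86 and -1.46 on the MAdCAM1+ arrays (-2.29 ± 0.12, 4.89-fold lower, adjusted p = 1.68e-08). Neither gene had overlapping groups, and the gap between them exceeded the range within either group. Slc14a1, a urea transporter, had -1.07, -1.16 and -0.71 on the Peyer's patch arrays, against 1.26 and 1.39 on the MAdCAM1+/PNAd+ and -0.04 and 0.00 on the MAdCAM1+ arrays. It was lower by the mean of both gates (-1.63 ± 0.21, adjusted p = 0.000379) and did not pass against the MAdCAM1+ arrays alone (-0.96, adjusted p = 0.155).

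The matrix protein gene Sparcl1, also called hevin after high endothelial venules, had -3.63, -3.56 and -3.58 on the Peyer's patch arrays, against -2.91 and -2.60 on the MAdCAM1+/PNAd+ and -2.09 and -1.66 on the MAdCAM1+ arrays. Its Peyer's patch values were nearly equal and lowest (-1.27 ± 0.14, adjusted p = 9.17e-05). The metalloproteinase inhibitor Timp3 was lower by a like amount (-1.34 ± 0.16, adjusted p = 0.000248), as was the flavin monooxygenase Fmo2 (-1.27 ± 0.17, adjusted p = 0.000447). Stmn2, a tubulin-binding protein, was lower by more (-1.78 ± 0.31, adjusted p = 0.00682). It was not called in the fit of the 7 HEC arrays alone or with the intestinal covariate (-1.265, adjusted p = 0.185). Lipoprotein lipase, Lpl, was lower (-2.71 ± 0.53, adjusted p = 0.0158), and lost the call without mesenteric arrays 2 or 4 (adjusted p = 0.0664 and 0.0627) and without Peyer's patch arrays 1 or 2 (0.0837 and 0.0789). Doc2b, a calcium sensor of exocytosis (-1.65 ± 0.38, adjusted p = 0.0442), lost it without any 1 array other than Peyer's patch array 3 (adjusted p = 0.0644 to 0.179).

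Gene products of mucosal secretion were prominent among the higher genes. Agr2, which folds mucins in the endoplasmic reticulum, had 2.05, 1.95 and 2.66 on the Peyer's patch arrays, against -0.11 and 0.00 on the MAdCAM1+/PNAd+ and -0.08 and -0.06 on the MAdCAM1+ arrays (2.28 ± 0.26, 4.86-fold higher, adjusted p = 0.000154). The groups were far apart, and with the intestinal mean as a covariate the difference was 2.17 (adjusted p = 0.0168). The part of epithelial material in these values was not tested. Muc2, the mucin of goblet cells and a member of the epithelial list, had 1.98, 0.62 and 1.88 on the Peyer's patch arrays, against -0.05 and 0.04 on the MAdCAM1+/PNAd+ and 0.12 and -0.04 on the MAdCAM1+ arrays. Peyer's patch array 2 was the lowest of its group and still above the mesenteric arrays. The difference (1.47 ± 0.25, adjusted p = 0.00643) was no longer called without Peyer's patch array 1 (adjusted p = 0.0607) or with the covariate (1.27, adjusted p = 0.136).

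Of 16 genes listed as secreted at gut vessels or mucosa, 5 were higher and none lower. Dmbt1, a mucosal scavenger protein, was higher by 1.56 ± 0.29 (adjusted p = 0.0105). Without mesenteric array 4 it differed by 1.37 and was not called (adjusted p = 0.057), and with the intestinal covariate it was at 1.71 (adjusted p = 0.0864). Clca3a2, of a family of secreted proteins first described as chloride channels, was higher by 1.37 ± 0.29 (adjusted p = 0.0234), a call lost without mesenteric arrays 1, 2 or 3 (adjusted p = 0.0746, 0.0664 and 0.0823) or Peyer's patch array 1 (0.0943). Its relative Clca3b had 2.23, 1.92 and 1.71 on the Peyer's patch arrays, against -0.04 and 0.13 on the MAdCAM1+/PNAd+ and 0.04 and 0.26 on the MAdCAM1+ arrays (1.86 ± 0.19, adjusted p = 5.77e-05). Clca genes are close copies, and probes for one may also read another. With the intestinal mean as a covariate the count of the list was 1 higher gene, Agr2, and Clca3b, outside the list, was at 2.25 (adjusted p = 0.000457).

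Lypd8, an antibacterial surface protein of gut epithelium, was higher with no overlap (1.40 ± 0.17, adjusted p = 0.000165). Epcam, the epithelial adhesion molecule, was higher by 0.84 (adjusted p = 0.000354) and the galectin Lgals2 by 1.16 ± 0.17 (adjusted p = 0.00102). With the intestinal mean as a covariate Lypd8 was at 1.07 (adjusted p = 0.0315), and Lgals2, a member of the list that forms the covariate, was at 0.64 and no longer called (adjusted p = 0.0795). Pld5 of the phospholipase D family (1.47 ± 0.17, adjusted p = 0.000165), the lysophospholipid acyltransferase Mboat2 (1.37 ± 0.16, adjusted p = 0.00016) and the kinase Cdkl1 (1.34 ± 0.22, adjusted p = 0.00398) completed the 15 highest genes without overlap. Cdkl1 was not called against the MAdCAM1+/PNAd+ arrays alone (1.15, adjusted p = 0.0531) or in the fit of the 7 HEC arrays alone.

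Genes of early stress response and tissue dissociation were lower for 3 of 27 measured and higher for none, with a median of -0.33. Atf3 (-0.63 ± 0.14), Btg2 (-0.80 ± 0.16) and Dnajb1 (-0.54 ± 0.12) had adjusted p of 0.0411, 0.0176 and 0.0429. None of the list was called after quantile normalization, and 1 was after median centring. Atf3 lost its call without any 1 array other than Peyer's patch array 3 (adjusted p = 0.0643 to 0.197), Btg2 without mesenteric arrays 2 or 4 or Peyer's patch arrays 1 or 2 (0.0767 to 0.117), and Dnajb1 without mesenteric arrays 1 or 3 or Peyer's patch arrays 1 or 2 (0.134 to 0.178). The mean of the list was -0.50, -0.58 and -0.29 on the Peyer's patch arrays, against -0.22, -0.23, -0.10 and -0.03 on the mesenteric arrays. Among 37 cell cycle genes the mitotic motor Kif11 was called (0.94 ± 0.20, adjusted p = 0.0224). Of the 37 differences 33 were positive, with a median of 0.24, against 0.01 over all genes. The mean of that list was 0.36, 0.03 and 0.56 on the Peyer's patch arrays, against 0.18, 0.03, 0.04 and -0.07 on the mesenteric arrays. Peyer's patch array 2 thus lay within the mesenteric range. The call of Kif11 was lost without mesenteric arrays 2, 3 or 4 (adjusted p = 0.128, 0.0517 and 0.0857) or Peyer's patch array 1 (0.11).

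**Figure D4:**
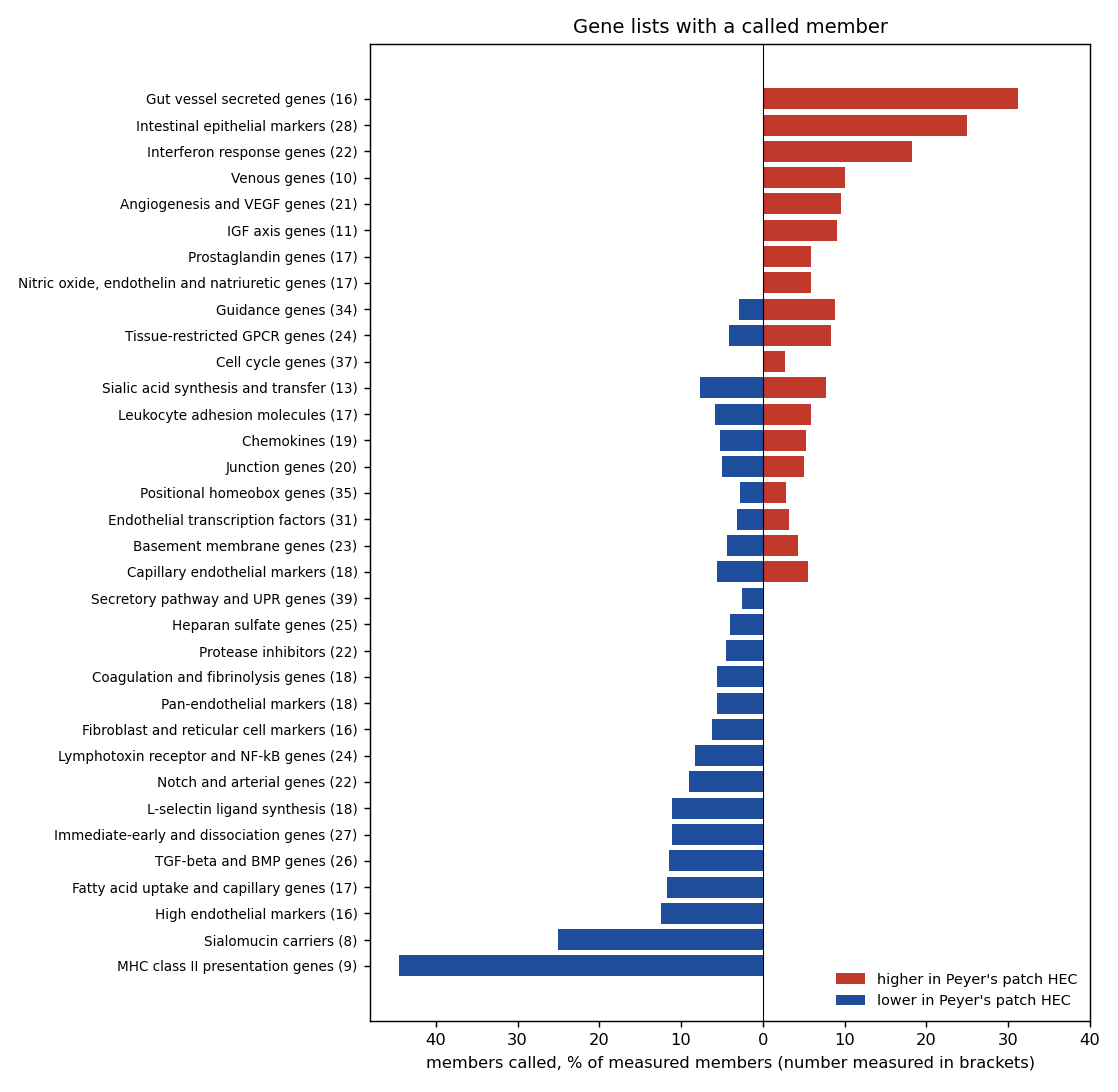
Share of the measured members of each gene list (horizontal axis, %) called higher (red, to the right) or lower (blue, to the left) in Peyer's patch HEC than in mesenteric HEC, for lists with at least 1 called member, with the number measured in brackets. Of all genes tested 0.557% were called higher and 0.642% lower, and the class II list reached 4 of 9 lower and the epithelial list 7 of 28 higher.

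The same tissue difference was then measured in capillary cells, whose group means came from arrays outside the HEC groups. The variance of each gene was estimated over all arrays of the series together. The HEC and capillary calls were therefore not independent. There 370 genes were called (1.86%), 204 higher (1.02%) and 166 lower (0.833%) in Peyer's patches. Without mesenteric capillary array 1 the count was 199 and without array 2 it was 167. Of the 239 genes called in HEC 53 were also called in capillary cells (22.2% of the HEC calls and 14.3% of the capillary calls), 28 higher in both, 21 lower in both and 4 in opposite directions. Both kinds of Peyer's patch sort carried intestinal epithelial markers, with means of 0.14, 0.73 and 1.24 on the Peyer's patch capillary arrays, against -0.01 and -0.01 on the mesenteric capillary arrays, and 2 of the 28 markers were called.

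Cd300lg and 3 of the 9 class II genes were lower in Peyer's patch capillary cells too. There H2-Aa differed by -1.02 (adjusted p = 0.000796), H2-Ab1 by -1.15 (adjusted p = 0.00224), Cd74 by -1.31 (adjusted p = 0.00672) and Cd300lg by -1.36 (adjusted p = 0.000578). H2-Eb1 (-0.47, adjusted p = 0.112) and H2-Ea (-0.79, adjusted p = 0.114), both called between the HEC groups, were not called in capillary cells. Hamp (-1.62, adjusted p = 0.00512), Slc14a1 (-1.68, adjusted p = 0.000962) and Hoxa9 (-0.70, adjusted p = 0.00358) were lower there too. Cd44 was higher in Peyer's patch capillary cells by 1.77 (adjusted p = 0.00137), Clca3b by 1.33 (adjusted p = 0.00304), Iigp1 by 1.04 (adjusted p = 0.00319) and Cxcl10 by 0.69 (adjusted p = 0.049). For none of these genes did the tissue difference itself differ between the cell types by the interaction test.

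The interaction, the tissue difference in HEC minus that in capillary cells, was called for 150 genes (0.752%), 63 higher (0.316%) and 87 lower (0.436%), and 36 of them were called between the HEC groups. Without mesenteric capillary array 1 or 2 the count was 73 or 83. Genes whose difference was found in HEC and not in capillary cells included Fjx1 (interaction 2.14 ± 0.23, adjusted p = 6.87e-05), Gucy1a1 (2.01 ± 0.24, adjusted p = 0.000199), Igfbp3 (1.74 ± 0.23, adjusted p = 0.000829) and Ifit1 (1.32, adjusted p = 0.0245). Negative interactions were called for Chst4 (-2.86 ± 0.53, adjusted p = 0.0135), Ly6e (-1.69 ± 0.18, adjusted p = 9.05e-05), Sparcl1 (-1.30, adjusted p = 0.00548) and Fmo2 (-1.17, adjusted p = 0.0445). Ly6e was lower in Peyer's patch capillary cells as well, by less (-0.60 ± 0.14, adjusted p = 0.0343). On the Peyer's patch and mesenteric capillary arrays Fjx1 lay between -0.28 and 0.19 and Chst4 between -0.37 and -0.06. For both, the interaction was close to the HEC difference itself (2.09 and -2.86). Whether they were expressed in capillary cells was not read. Agr2 and Ptgs2 were not called in capillary cells (1.05, adjusted p = 0.136, and 0.23, adjusted p = 1), and their interactions missed the threshold (adjusted p = 0.327 and 0.0611).

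Of the 4 genes called in opposite directions, Ace, of the angiotensin-converting enzyme, and Gask1b were picked out after their values were seen. Ace was lower in HEC (-0.39) and higher in capillary cells (0.99), and Gask1b was higher in HEC (0.81) and lower in capillary cells (-0.67). Aplnr was higher in Peyer's patch HEC and lower in Peyer's patch capillary cells, with 1.94, 2.02 and 2.12 on the Peyer's patch capillary arrays, against 2.85 and 2.98 on the mesenteric ones (-0.88 ± 0.17, adjusted p = 0.00763, interaction adjusted p = 2.57e-05). Plat, the tissue plasminogen activator, was lower in Peyer's patch HEC, with -1.34, -2.20 and -1.40, against -0.42 and -0.92 on the MAdCAM1+/PNAd+ and -0.27 and -0.89 on the MAdCAM1+ arrays. The call of that HEC difference (-1.02 ± 0.21, adjusted p = 0.0178) was lost without mesenteric arrays 1 or 3 (adjusted p = 0.0757 and 0.0727) or Peyer's patch array 2 (0.102), while the difference stayed between -1.18 and -0.74 without any 1 array. In capillary cells Plat had 2.16, 2.25 and 2.16 on the Peyer's patch arrays, against 0.68 and 0.46 on the mesenteric arrays (1.62, adjusted p = 0.00114, interaction adjusted p = 0.000278).

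The largest positive interactions belonged to genes called in capillary cells and not between the HEC groups. Btnl9, a butyrophilin-like gene of capillary endothelium, had 0.84, 1.19 and 0.97 on the Peyer's patch capillary arrays, against 4.49 and 4.76 on the mesenteric ones, and differed by -0.03 between the HEC groups (interaction 3.60 ± 0.18, adjusted p = 6.29e-09). Itih5, Angptl4, Sema3c and Rbp7 had the same form, at -2.52 to -3.77 in capillary cells. On the 7 HEC arrays Btnl9 lay between -0.22 and 0.01, and whether it was expressed there was not read. At the other end the retinoic acid-degrading enzyme Cyp26b1 (2.87), pyruvate carboxylase Pcx (2.48) and Clca3a1 (3.31) were higher in Peyer's patch capillary cells, and were not called between the HEC groups (adjusted p = 0.528, 0.897 and 0.0851).

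**Figure D5:**
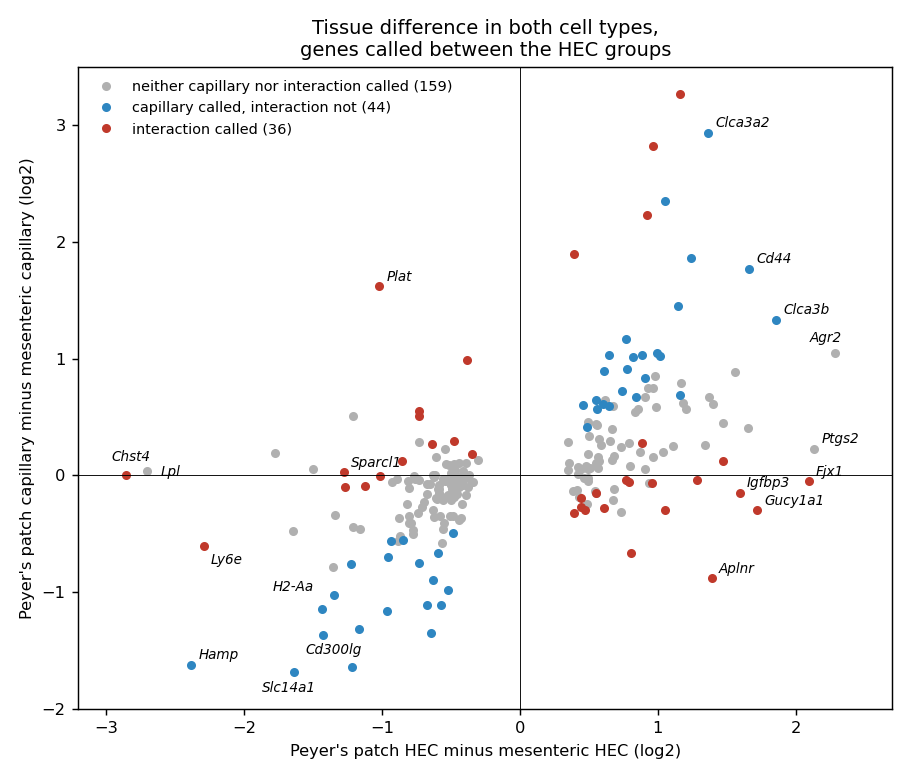
Difference of Peyer's patch minus mesenteric HEC (horizontal axis, log2) against the same difference in capillary cells (vertical axis, log2), one point for each of the 239 genes called between the HEC groups. Genes called in both cell types with no called interaction are blue (44), those with a called interaction red (36) and the rest grey (159), and Plat and Aplnr lie in the quadrants of opposite direction.

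The mesenteric gates were compared with each other and with Peyer's patches. Against the MAdCAM1+/PNAd+ arrays 155 genes were called (0.777%) and against the MAdCAM1+ arrays 77 (0.386%), each with 2 mesenteric arrays, and 53 of the 239 genes were called in both. There were 4 genes called between the gates (0.0201%), all lower in the MAdCAM1+/PNAd+ arrays: Cytl1 (-1.39), Fbln2 (-1.29), Myof (-1.65) and Tacr1 (-1.17), named because their count was small. The spread over genes between arrays 1 and 3 (0.178) and between arrays 2 and 4 (0.193) was smaller than within either gate (0.238 and 0.247). For Chst4, Slc14a1, Gucy1a1, Aplnr and Adgrg6 the MAdCAM1+ arrays had means between those of the MAdCAM1+/PNAd+ arrays and Peyer's patches. Array 1 minus array 3 and array 2 minus array 4 gave 1.48 and 1.49 for Chst4, 1.30 and 1.39 for Slc14a1, -0.60 and -1.02 for Gucy1a1, -0.76 and -0.66 for Aplnr, and -1.28 and -2.04 for Adgrg6. These 5 genes were picked after their values were seen, so the equal signs follow from that choice and are no separate result. Sparcl1 went the other way, with Peyer's patches at -0.84 against the MAdCAM1+/PNAd+ arrays and -1.71 against the MAdCAM1+ arrays. The fit without pairs of arrays 1 and 3 and of arrays 2 and 4, which the labels do not give, called none of the 5 picked genes (adjusted p = 0.118 to 1). A fit with such pairs was not run.

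Peripheral node HEC extended several of these orders. Over all genes, 6.65% were called between Peyer's patch and peripheral HEC and 2.69% between mesenteric and peripheral HEC. Fjx1 was at -0.15 to 0.07 in peripheral HEC, where it was lower than in Peyer's patch HEC by 3.72 log2 (adjusted p = 6.24e-11) and lower than in mesenteric HEC by 1.63 (adjusted p = 1.65e-06). Gucy1a1 averaged -1.50 and Aplnr -0.89 in peripheral HEC, below all mesenteric and Peyer's patch HEC arrays. Ly6e ran the other way, at -0.34 to -0.26 in peripheral HEC, and mesenteric HEC lay between the other tissues (mesenteric minus peripheral -1.10, adjusted p = 1.41e-05). Hamp did not follow such an order, since mesenteric and peripheral HEC did not differ by the test (0.62, adjusted p = 0.205) while Peyer's patch HEC were below both. Hoxa9 did not differ by the test between Peyer's patch and peripheral HEC (0.08, adjusted p = 0.621). For this gene mesenteric HEC were above peripheral HEC (1.03, adjusted p = 4.51e-06). Ptgs2 was lower in mesenteric than in peripheral HEC (-1.20, adjusted p = 0.017). Its difference between Peyer's patch and peripheral HEC missed the threshold (0.93, adjusted p = 0.0579). The comparisons between the 3 tissues share arrays.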

How the data were processed

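Total RNA of sorted endothelial cells was amplified as cRNA, turned into cDNA and hybridised to Affymetrix mouse arrays, per the labels' protocols. The deposited values are on a log2 scale, and the submitters' processing notes name RMA and Partek for the authors' processing. Versions are not given in the sources used here. The values are shifted to a baseline for each probe set that is not known, and exact zeros occur in 54.47% of probe sets, so levels and detection were not read from them. Arrays have no sequencing depth, and their number limits the precision.

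The table held 28856 probe sets, of which 21789 carried 1 gene symbol, 1621 carried several and 5446 were unnamed. Symbols of 21698 were matched by Entrez number to the GRCm38.p6 tables, and none changed. Probe sets of a gene were averaged, which left 19938 genes, 999 of them with more than 1 probe set. The limma package (version 3.58.1, under R 4.3.3) fitted 1 mean to each of the 7 groups over all 19 arrays with lmFit, leaving 12 residual degrees of freedom, and moderated the variances with eBayes. The p-values were adjusted by the Benjamini-Hochberg method over all genes at a threshold of 0.05. The mesenteric mean gave both gates equal weight. The members and gene lists were chosen with earlier results of these data known. Genes named were the 15 highest and 15 lowest called genes at least 2-fold apart without overlap, the 5 highest and 5 lowest called interactions, up to 4 called members of each list and a fixed set of high endothelial genes, with predicted genes, receptors of smell and taste, small RNAs and antigen receptor segments left out. On simulated data for the HEC comparison over 19938 genes, 94% of genes changed by 1 log2 unit and 100% of those changed by 2 were recovered, and 10 of 204 called genes were unchanged ones. The simulated noise was normal, independent between genes, and of 1 SD per gene on all arrays. It did not model the wider spread of the Peyer's patch HEC arrays, so these rates may not hold for the real arrays. Arrays with the same number were not taken as pairs, since the labels do not say that they belong together. Their deviations from group means correlated at -0.135, 0.305 and 0.115. Each mesenteric gate held 2 arrays, whose deviations mirror each other, so these values cannot decide whether the numbers mark pairs. Promoter windows were searched with Python 3.11.15. Alternatives were another scaling, weighting, choice of probe set, filter, set of groups, gate, replicate block, single arrays left out and, added after seeing the data, the intestinal marker mean as a covariate.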

Additional observations from a re-analysis of the deposited data

Results flagged for a closer look

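Dixon's criterion, which chance meets in about 1 of 20 groups, singled out 1 of the 4 mesenteric HEC arrays for 6 of the 95 named genes. That share is near the chance rate, and the 4 arrays join both gates. Array 1 was high for Igfbp3 (-2.963). Array 2 was low for Cxcl13 (0.401) and for Glycam1 (4.807). Array 3 was apart for Gata2 (-0.204), and array 4 for Cd74 (1.086) and Lgals4 (-0.042).

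The tissue difference in HEC minus that in capillary cells was called by limma's interaction term for 20 named genes. It was positive for Btnl9 (3.601), Itih5 (3.448), Angptl4 (3.408), Sema3c (2.838), Rbp7 (2.635), Aplnr (2.275), Fjx1 (2.144), Gucy1a1 (2.013), Igfbp3 (1.740), Pld5 (1.346) and Ifit1 (1.323). It was negative for Ltbp4 (-0.903), Fmo2 (-1.168), Sparcl1 (-1.298), Ly6e (-1.687), Clca3a1 (-2.333), Pcx (-2.521), Cyp26b1 (-2.580), Plat (-2.640) and Chst4 (-2.857).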

How the results depend on the processing

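The count of 239 genes called between the HEC groups was 153 (68 lower) with a replicate block, though the labels do not say that the numbers pair the arrays. It was 80 (46 higher, 34 lower) when the fit held the 7 HEC arrays alone, 155 (80 lower) with the MAdCAM1+/PNAd+ gate alone, 77 (40 higher, 37 lower) with the MAdCAM1+ gate alone, and 112 (31 lower) with the intestinal covariate. Quality weights put 41.6 on Peyer's patch HEC array 1, against 0.214 and 0.182 on arrays 2 and 3, and were treated as void. With them the count was 7138 (3591 higher, 3547 lower) between the HEC groups. It was 790 (432 higher, 358 lower) for capillary cells and 1703 (853 higher, 850 lower) for the interaction. Leaving out single arrays gave 98 to 946 (54 to 328 higher, 44 to 618 lower). The capillary count of 370 was 224 (126 higher, 98 lower) with the compared groups alone, had 91 lower with the covariate, and ran from 167 to 369 (86 to 200 higher, 81 to 169 lower) without single arrays. The interaction had 52 lower genes with the block, and 73 to 220 in all (30 to 77 higher, 39 to 143 lower) without single arrays. Direction was checked for the named genes between the HEC groups and for the genes named by their interaction rank. None of these changed direction where it was called. The other called genes and the capillary comparison were not checked for direction. Of 71 named genes called, 37 kept the call without any 1 of the 7 HEC arrays and 26 also under up to 11 other settings, the void weights left out, with the cause of each loss not tested.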
